A study of Mus musculus with 49 samples.

Results

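The genes described here are 7 subunit genes of the GABA-A receptor: Gabra2, Gabra3, Gabra4, Gabra5, Gabrb1, Gabrb2 and Gabrg1. They were picked by name out of 24488 usable genes, when it was already known that Gabra2 differed between the WT mice and the other groups. Its values in those comparisons are therefore given as a description, without a test. All 7 genes passed the filter on low values in each of 6 comparisons.

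Frontal cortex RNA from mice on a high fat diet was sequenced in 49 libraries. The WT mice were fed it for 2 months (9 libraries) or for 4 (10 libraries). A further 10 libraries come from mice labelled AKO, for amylin knockout, after 4 months of diet. Mice with a conditional human amylin transgene also had 4 months of diet and received vehicle (10 libraries) or tamoxifen (10 libraries), with the brain taken 2 months after injection. The labels name no strain, sex, age, Cre driver or transgene promoter, do not say what the knockout removes, and do not say whether a library is 1 animal, so each p-value reflects only how these libraries spread, which may be technical. All 5 groups share the diet, so no group shows a level without it.

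GABA-A receptors are chloride channels built from 5 subunits around a pore, and they carry most fast inhibition in the cortex. A typical receptor combines alpha, beta and gamma subunits. The alpha subunit shapes the affinity for GABA, the kinetics and the response to benzodiazepines, and alpha-2 receptors are known for their place on the axon initial segment of pyramidal cells. As background, C57BL/6J mice are known to carry a small intronic deletion in Gabra2 that lowers its mRNA and protein, and a separate deletion in Nnt, which encodes a mitochondrial transhydrogenase. As no strain is named, strain and group label cannot be told apart in these libraries.

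Of the members, 4 lie next to each other on chromosome 5 (GRCm38, GENCODE M21). Gabrg1 (gene ID 14405) covers chr5:70751047-70842617 on the minus strand, Gabra2 (14395) chr5:70957597-71095849 on the minus strand, Gabra4 (14397) chr5:71569749-71658308 on the minus strand and Gabrb1 (14400) chr5:71658113-72149037 on the plus strand. The last 2 overlap at their 5′ ends on opposite strands, and the sources used here do not say whether the counting used strand, so reads in that overlap are uncertain. Gabrb2 (14401) lies on chromosome 11, Gabra5 (110886) on chromosome 7 and Gabra3 (14396) on X. All 7 members were found in RefSeq's promoter table (GRCm38.p6). The 250 bases upstream of the start are shown for Gabra2, the member whose level separated the groups, and for Gabrg1, its nearest tested neighbour, whose level did not. Capitals mark GC boxes (GGGCGG, or CCGCCC on the other strand), which overlap no other motif searched.
Gabra2, chr5:71095850-71096099, minus strand: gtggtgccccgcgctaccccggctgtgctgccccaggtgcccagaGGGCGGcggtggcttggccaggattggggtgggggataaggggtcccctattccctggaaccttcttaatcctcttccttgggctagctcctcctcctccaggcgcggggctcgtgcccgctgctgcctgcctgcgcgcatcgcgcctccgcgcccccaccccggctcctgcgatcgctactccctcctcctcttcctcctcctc
Gabrg1, chr5:70842618-70842867, minus strand: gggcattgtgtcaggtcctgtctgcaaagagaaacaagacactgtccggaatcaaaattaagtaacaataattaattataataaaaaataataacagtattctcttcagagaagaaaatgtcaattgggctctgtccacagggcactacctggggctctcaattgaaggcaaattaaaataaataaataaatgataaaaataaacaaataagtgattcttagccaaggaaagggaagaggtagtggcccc
The Gabra2 window is 70.0% G or C with 18 CG dinucleotides and 1 GC box, and 90.8% of the 32851 windows of this length in the table have a lower GC content. The Gabrg1 window is 35.6% G or C with 1 CG dinucleotide and no GC box, and 5.41% of windows lie lower. The median window has 52.4% and 6 CG dinucleotides, and 32.7% of windows hold a GC box. Gabra4, whose level did not separate the groups either, has 61.2% G or C, 12 CG dinucleotides and 2 GC boxes. Gabrb1, likewise without that difference, has windows of 64.4% and 50.8% with 18 and 6 CG dinucleotides and no GC box. The 2 windows shown are thus no contrast of members with and without a difference in level. These letters come from the reference and describe the sites only, since no library was read for its sequence here.

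The levels are log2(normalised reads + 1), in which 1 unit is a doubling. Depth ran from 29.2 to 75.6 M reads per library (median 42.0 M), so even the least abundant member, Gabrb1, had at least 444 reads in every library. All 10 markers of cortical excitatory neurons were present at a mean of at least 10 reads. Iapp, the gene for amylin, had 596 reads over the 10 libraries labelled AKO (36 to 116 per library), 1 read in vehicle library 16 and no read elsewhere, where a count of 0 allows up to 3 reads per group. As the labels do not say what the knockout removes, whether these reads go against the label AKO cannot be told here. Those libraries are therefore named below by their label alone. Libraries that stood apart by region markers were vehicle 1 and 3 and tamoxifen 9 (olfactory bulb), labelled AKO 14 and 19 (olfactory mucosa) and WT 13 at 4 months (hippocampus).

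Gabra2 encodes the alpha-2 subunit. In WT mice its level had a lowest, median and highest value of 10.24, 10.67 and 10.78 at 2 months. At 4 months these were 10.48, 10.63 and 10.99. The libraries labelled AKO ran from 11.67 over 11.86 to 12.12. All 10 of them thus lay above all 19 WT libraries. In the transgenic mice the values were 11.32, 11.91 and 12.07 with vehicle and 11.50, 11.95 and 12.10 with tamoxifen. Every one of the 30 libraries labelled AKO or transgenic lay above the highest WT library, with a gap of 0.33 between 11.32 (vehicle 16) and 10.99 (WT 13 at 4 months).

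**Figure D1:**
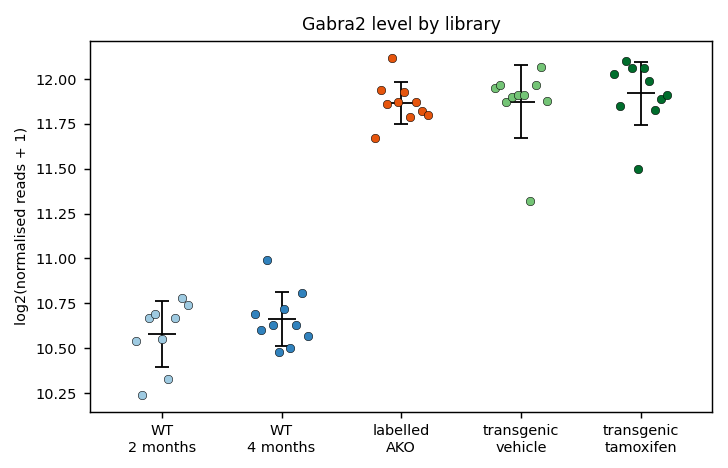
Gabra2 level, as log2(normalised reads + 1), in each of 49 libraries by group; points are libraries, bars the group mean and SD. The 19 WT libraries lie at 10.24 to 10.99 and the 30 others at 11.32 to 12.12, with vehicle 16 and tamoxifen 21 lowest among the transgenic libraries.

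The group means were 10.58 ± 0.18 (SD, n = 9) in WT at 2 months and 10.66 ± 0.15 (n = 10) at 4 months. They were 11.87 ± 0.12 in the libraries labelled AKO, 11.88 ± 0.20 with vehicle and 11.92 ± 0.18 with tamoxifen (n = 10 each). Against WT at 4 months, the libraries labelled AKO were higher by 1.21 (SE 0.06, 2.31-fold). Vehicle transgenic libraries were higher by 1.21 (SE 0.08, 2.32-fold) and tamoxifen transgenic libraries by 1.26 (SE 0.07, 2.40-fold). These 3 comparisons use the same WT libraries, so they are not independent of each other. By size of difference, 48 of 15185 genes, 47 of 15129 and 49 of 15225 lay further from 0 than Gabra2.

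Gabra2 was the single member past the adjusted p threshold of 0.05 in each of these 3 comparisons (1 of 7). The share over all genes tested was 0.79% for the libraries labelled AKO, 6.2% for vehicle and 13.1% for tamoxifen. As the genes were picked with this difference known, nothing is read from that count.

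In the 3 comparisons run between groups on the same side of the gap, no difference in Gabra2 passed the test. Labelled AKO against tamoxifen was not tested. The 95% interval ran from -0.15 to 0.14 for libraries labelled AKO minus vehicle (difference -0.01, limma adjusted p = 0.96). It ran from -0.12 to 0.21 for tamoxifen minus vehicle (difference 0.05, limma adjusted p = 0.9998). For WT at 4 minus 2 months it ran from -0.07 to 0.23 (difference 0.08, limma adjusted p = 0.48). The order of the 5 groups was thus WT at 2 months, WT at 4 months, labelled AKO, vehicle and tamoxifen, and the single step in it larger than the spread was that between WT at 4 months and labelled AKO.

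No member passed the threshold in these last 3 comparisons (0 of 7 in each). Over all genes tested, the share called was 6.72% for libraries labelled AKO against vehicle and 8.77% for WT at 4 against 2 months. For tamoxifen against vehicle limma called 0% of 15270 genes, while 503 (3.29%) had an unadjusted p under 0.05, none of them a member.

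Per kilobase of exon, which allows genes to be compared, Gabra2 was among the scarcer of the 7 members in WT cortex. In WT at 4 months it stood at 213 ± 23.9 normalised reads per kb (SD, n = 10). Of the members, Gabrb2 (2290 ± 150) and Gabra3 (2160 ± 227) were highest and did not differ beyond their spread. Gabra5 followed at 1310 ± 369 and Gabra4 at 1000 ± 48.7, a gap smaller than the SD of Gabra5. That SD includes WT 13, which stood apart in Gabra5 (log2 level 12.75, others 11.62 to 12.07). The order of these 2 genes within each library was not counted. Gabrg1 (247 ± 30.1) and Gabra2 lay close together, and Gabrb1 was lowest at 70.5 ± 5.69.

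Gabra2 changed place in this order. Per kb it exceeded Gabrg1 in 6 of 19 WT libraries and in 30 of 30 libraries labelled AKO or transgenic. There its mean was 491 ± 41 (labelled AKO), 496 ± 60.4 (vehicle) and 511 ± 58.0 (tamoxifen) normalised reads per kb. It still lay below Gabra4, at 1070 ± 101, 1010 ± 119 and 1000 ± 128. Taken as a share of the 4 alpha members Gabra2 to Gabra5 per kb, Gabra2 made up 4.4% ± 0.5 in WT at 2 months and 4.5% ± 0.4 at 4 months. The share was 10% ± 0.9 in the libraries labelled AKO, 9.9% ± 1.0 with vehicle and 10.5% ± 1.7 with tamoxifen. The highest WT share was 5.2% and the lowest in the other 30 libraries 7.2%, so this measure did not overlap either.

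The remaining alpha subunits did not show the step. Gabra3, whose receptors are found on many monoamine neurons and in deep cortical layers, had group means from 13.04 to 13.13. Gabra4, an alpha subunit of extrasynaptic receptors with delta, ranged from 12.53 to 12.67. Gabra5, best known from tonic inhibition in hippocampal pyramidal cells, had means from 11.63 (tamoxifen) to 11.89 (WT at 4 months) and a spread within groups of up to 0.35. Its highest values were 12.75 in WT 13 at 4 months and 12.46 in vehicle 3, and the groups compared overlapped.

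Gabrb2 encodes a beta subunit, which with alpha forms the GABA site. Its group means spanned 13.80 to 13.90. Gabrb1, the scarcest member, spanned 9.74 to 9.93. Neither gene had groups that did not overlap.

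Gabrg1 encodes a gamma subunit that is abundant in glia and in some subcortical regions. Its lowest, median and highest values were 10.33, 10.68 and 11.01 in WT at 2 months and 10.59, 10.96 and 11.11 at 4 months. They were 10.61, 10.99 and 11.27 in the libraries labelled AKO, 10.37, 10.72 and 10.90 with vehicle and 10.35, 10.69 and 11.85 with tamoxifen. Of the 6 members besides Gabra2 it came closest to the threshold. WT at 4 months exceeded WT at 2 months by 0.24 (SE 0.08, limma adjusted p = 0.066), and the libraries labelled AKO exceeded vehicle by 0.27 (SE 0.09, limma adjusted p = 0.076). Vehicle lay below WT at 4 months by 0.25 (SE 0.08, log2 difference -0.25), the largest gap to WT of these 6 apart from Gabra5 with tamoxifen (-0.26, SE 0.11). Without the 3 olfactory bulb-rich libraries, an alternative chosen after seeing the data, Gabrg1 passed the threshold against WT at 4 months (-0.23, SE 0.08), so that 2 of 7 members did. Its difference was no larger there than over all libraries. The number of all genes called, 938 of 15129 with all libraries, also rose in that setting, as given below. Nothing is therefore read from the count of 2.

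**Figure D2:**
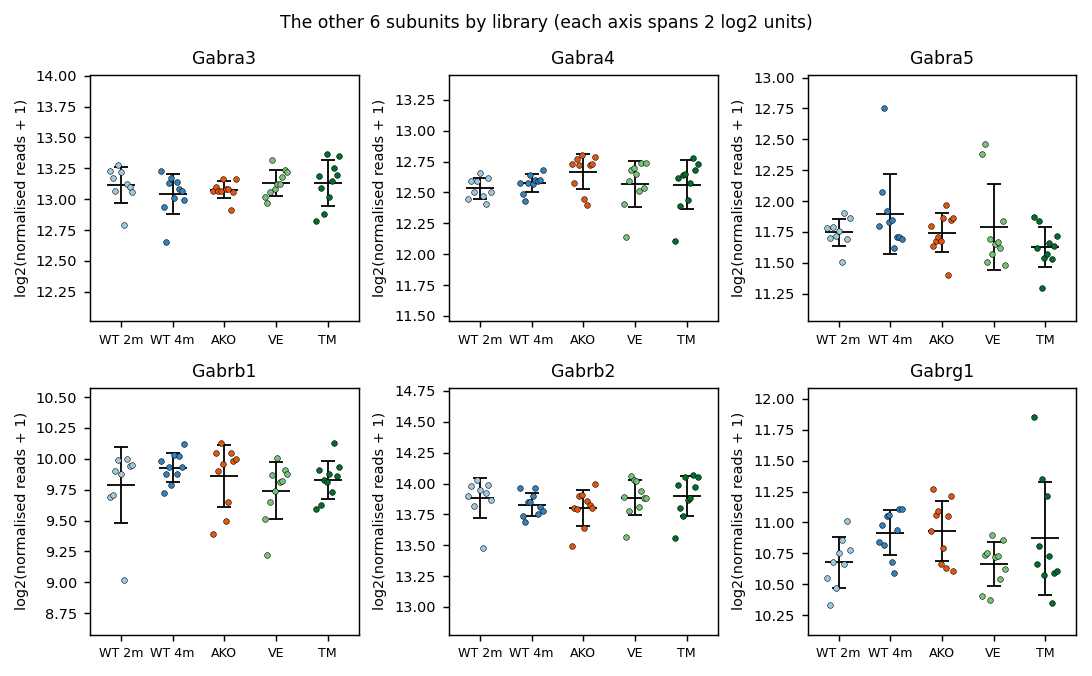
Levels of Gabra3, Gabra4, Gabra5, Gabrb1, Gabrb2 and Gabrg1, as log2(normalised reads + 1), in each library by group (WT at 2 and 4 months, labelled AKO, vehicle VE and tamoxifen TM); bars are the mean and SD, and each axis spans 2 units. All groups overlap, with single libraries apart such as 12.75 for Gabra5 in WT at 4 months and 11.85 for Gabrg1 with tamoxifen.

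The genes around Gabra2 were compared with WT at 4 months in the same way. Besides Gabra2, 14 genes within 2 Mb were tested, and limma and limma-voom both called 0 of them in each of the 3 comparisons, while 0, 2 and 3 had an unadjusted limma p under 0.05 (labelled AKO, vehicle and tamoxifen). Of all genes, 0.79%, 6.2% and 13.1% were called, and with 14 genes nothing is read from these counts. Gabrg1 starts at -253 kb from the start of Gabra2 and differed by 0.01 (SE 0.09) in the libraries labelled AKO, -0.25 (SE 0.08) with vehicle and -0.05 (SE 0.15) with tamoxifen. Gabra4 and Gabrb1 both start at 562 kb. Gabra4 differed by 0.09 (SE 0.05), -0.01 (SE 0.06) and -0.01 (SE 0.06) in the same order, and Gabrb1 by -0.07 (SE 0.08), -0.18 (SE 0.08) and -0.10 (SE 0.06). The largest fitted values among these 14 genes in each comparison came from Slc10a4 and Zar1, both with large errors. Atp10d, a lipid flippase gene annotated as a polymorphic pseudogene, followed for the libraries labelled AKO and for vehicle (0.26, SE 0.17, in both). Slc10a4, a vesicular transporter-like protein, differed by 0.95 (SE 0.50), -1.23 (SE 0.60) and -1.29 (SE 0.80), with limma adjusted p of 0.41, 0.24 and 0.32. Zar1, an oocyte gene, differed by -1.65 (SE 0.72, limma adjusted p = 0.14) with tamoxifen.

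**Figure D3:**
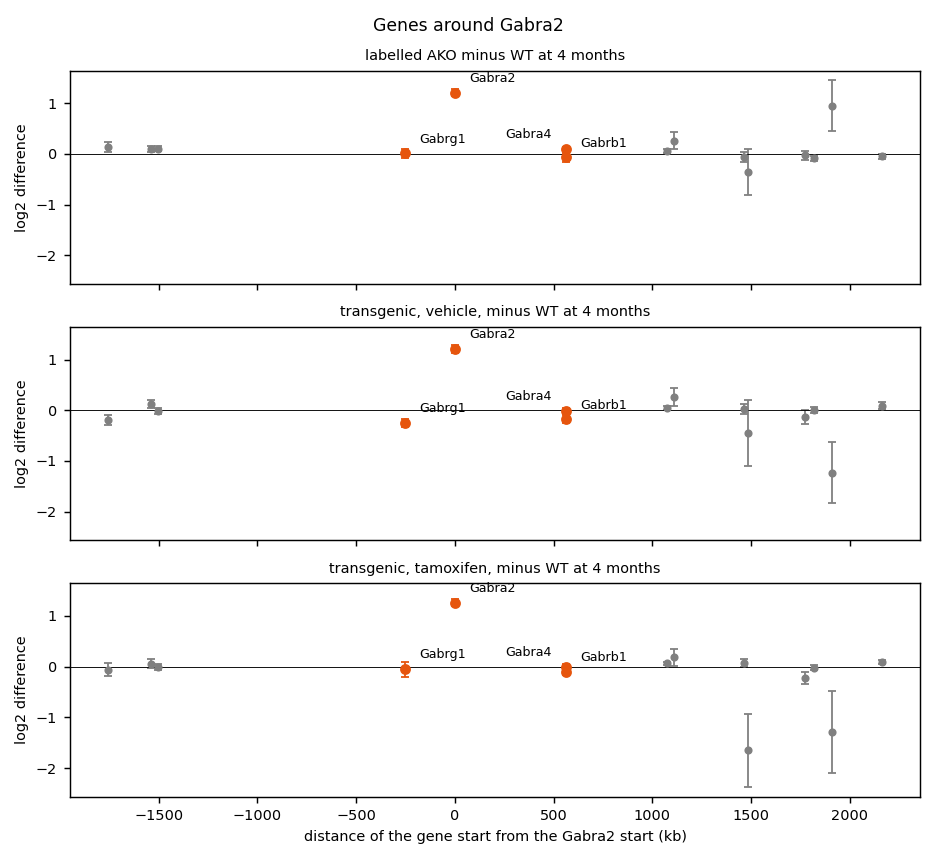
Log2 difference from WT at 4 months (points, with SE bars) of the tested genes within 2 Mb of Gabra2, against the distance of their start from that of Gabra2 in kb, for the libraries labelled AKO, vehicle and tamoxifen. Gabra2 stands at 1.21, 1.21 and 1.26, while Gabrg1, Gabra4 and Gabrb1 (orange) lie between -0.25 and 0.09.

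Within 10 Mb, Gabra2 left out, the genes past the limma threshold were 0 of 79 for the libraries labelled AKO (11 at an unadjusted p under 0.05, and 0 by limma-voom), 2 of 78 for vehicle (Fip1l1 and Tmem33) and 10 of 78 for tamoxifen. The last share, 12.8%, was near the 13.1% of all genes. In the other comparisons the genes called within 2 Mb were Slc10a4, higher in the libraries labelled AKO than with vehicle by 2.17 (SE 0.57, limma adjusted p = 0.028), and Tec, a kinase gene, higher in WT at 4 than at 2 months by 0.51 (SE 0.11, limma adjusted p = 0.011).

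Nnt was examined beside Gabra2 as a check of what else separates the labelled groups, and because of the background given above. As it was picked with that in view, its p-values against WT are no independent test. Its lowest, median and highest levels were 9.60, 9.67 and 9.75 in WT at 2 months and 9.64, 9.70 and 9.92 at 4 months. In the libraries labelled AKO they were 10.46, 10.51 and 10.59. Those 10 libraries lay above all WT libraries and close together. The transgenic libraries spread over a wider range, from 9.63 over 10.08 to 10.61 with vehicle and from 9.55 over 10.24 to 10.46 with tamoxifen, which spans the WT level and the level of the libraries labelled AKO.

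Against WT at 4 months Nnt was higher by 0.77 (SE 0.04, limma adjusted p = 1.3e-12) in the libraries labelled AKO. It was higher by 0.37 (SE 0.10, limma adjusted p = 0.026) with vehicle and by 0.40 (SE 0.10, limma adjusted p = 0.011) with tamoxifen. Of the 30 libraries labelled AKO or transgenic, 25 lay above the highest WT library in Nnt, compared with 30 in Gabra2. The 5 transgenic libraries with Nnt no higher than in WT had Gabra2 at 11.88 to 12.10, the level of the rest. With group means removed, no relation of the 2 genes passed over 49 libraries (Pearson's r = -0.21, Spearman's rho = -0.04, permutation p = 0.22 and 0.80; r = -0.19 without the 2 libraries farthest out in Nnt). That pooled value joins groups of both signs. In WT at 4 months r was 0.76 and rho 0.76 (permutation p = 0.0086 and 0.016, adjusted over 5 groups 0.043 and 0.079), and r was 0.68 without WT 13 and 14. With tamoxifen r was -0.50 and rho -0.65 (permutation p = 0.14 and 0.049, adjusted 0.34 and 0.12), and with vehicle they were -0.36 and -0.08. In WT at 2 months they were 0.15 and 0.13, and in the libraries labelled AKO 0.18 and -0.24. Whether these relations differ between groups was not tested. The part of Nnt, or of what it marks, in the Gabra2 difference was not tested.

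Within groups, the genes most like Gabra2 were Wdfy1 (r = 0.54 over 49 libraries with group means removed), Dgkg (0.54) and Pbrm1 (0.53), among 7334 named genes above the median level. As the highest of that many values, they are a ranking only. No p-value was computed for them, and no r without single libraries. Dgkg encodes a diacylglycerol kinase and Pbrm1 a chromatin remodelling subunit, and their group means spanned 12.02 to 12.27 and 11.11 to 11.30. Wdfy1, which encodes a phosphoinositide-binding endosomal protein, is described because its libraries fell into separate levels. Wdfy1 lay at 9.16 to 9.59 in all 29 WT and AKO-labelled libraries. In 18 of the 20 transgenic libraries it lay at 10.69 to 11.81. The other 2 were vehicle 16 (9.26) and tamoxifen 21 (9.33), which were also the 2 lowest transgenic libraries in Gabra2 (11.32 and 11.50, with the other 18 at 11.83 to 12.10). Nnt in these 2 libraries was 10.44 and 10.43, at the upper end of the transgenic range. So a pair of transgenic libraries combined high Nnt with Wdfy1 at the level of the WT and AKO-labelled libraries. Their Gabra2 lay between the WT libraries and all others. The libraries labelled AKO also joined low Wdfy1 to high Nnt (10.46 to 10.59), with Gabra2 from 11.67. High Nnt was also seen in transgenic libraries with high Wdfy1, such as vehicle 10 (Nnt 10.61, Wdfy1 10.69).

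**Figure D4:**
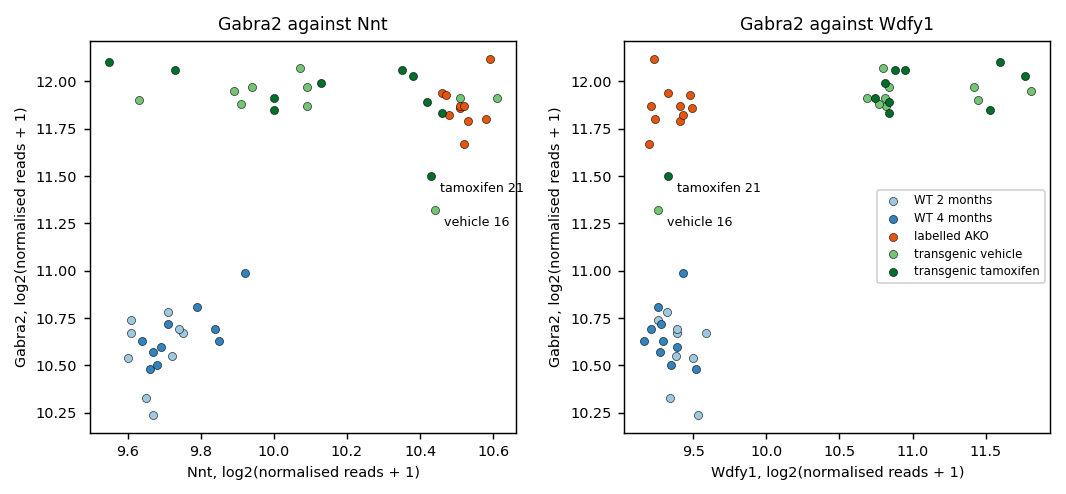
Gabra2 level of each library against Nnt (left) and Wdfy1 (right), all as log2(normalised reads + 1); colours are groups, and 2 transgenic libraries are named. Vehicle 16 and tamoxifen 21 have Gabra2 at 11.32 and 11.50 and Wdfy1 at 9.26 and 9.33, while the other 18 transgenic libraries have Gabra2 of at least 11.83 and Wdfy1 of at least 10.69.

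With group means left in, the genes that followed Gabra2 most closely over the 49 libraries were Unc119 (r = 0.75), Tsr2 (0.73), Nnt (0.68), Elac1 (0.68) and Gstz1 (0.68). Unc119 binds lipid-modified cargo proteins, Tsr2 escorts a ribosomal protein, Elac1 acts in tRNA repair and Gstz1 in tyrosine breakdown. The most opposed were Trp53inp2 (-0.76), Ubald1 (-0.76), Yars (-0.75), Hspa8 (-0.74) and Sars (-0.74), of which Yars and Sars are tRNA synthetases and Hspa8 is a constitutive chaperone. These values carry the differences between groups. None of these genes showed the Gabra2 step in size, as Unc119 ranged from 9.74 to 10.16 and Hspa8 from 16.05 to 16.32 in group means.

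Receptors are assembled from subunits made in the same cells, so the members were also compared with each other inside groups. With group means removed, 8 of 21 pairs passed at a Benjamini-Hochberg adjusted permutation p of 0.05 by both Pearson's r and Spearman's rho. The strongest were Gabrb1 with Gabrb2 (r = 0.73, rho = 0.51, adjusted permutation p = 1.0e-04 and 0.0017) and Gabra3 with Gabrb2 (r = 0.72, rho = 0.67, adjusted permutation p = 1.0e-04 and 2.1e-04). Without the 2 libraries farthest out in Gabrb2, tamoxifen 9 and WT 37 at 2 months, r was 0.65 and 0.61.

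Gabra4 varied with Gabrb2 (r = 0.61), Gabrb1 (0.55) and Gabra3 (0.52), and against Gabra5 (-0.61). Gabrg1 varied against Gabra3 (-0.54) and Gabrb2 (-0.53). Leaving out the 2 farthest libraries gave 0.56, 0.52, 0.40, -0.54, -0.44 and -0.39 for these 6 pairs. Gabra2 passed by both measures with no other member; its largest rho was with Gabrg1 (r = 0.28, rho = 0.36, adjusted permutation p = 0.081 and 0.034).

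The same was done against the mean z-score of 12 lists of cell type and region markers, and 26 of 84 relations passed by both measures. Bulk RNA cannot tell fewer cells of a type from less RNA per cell. Gabra4 varied with the excitatory neuron list (r = 0.79, and 0.57 without vehicle 3 and tamoxifen 9) and against the olfactory bulb list (-0.78, and -0.72 without vehicle 1 and 3). Gabrb2 (0.73) and Gabra3 (0.68) also varied with the excitatory list. Gabra5 varied with the olfactory bulb list (0.70, and 0.58 without vehicle 1 and 3) and against the striatal list (-0.63). Gabrg1 varied with the astrocyte (0.52) and striatal (0.44) lists and against the excitatory one (-0.56). Adjusted permutation p was at most 0.0090 for r and 0.020 for rho in these relations. For Gabra2 no list passed by both measures, and its r lay between -0.24 (excitatory neurons) and 0.29 (hippocampus).

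**Figure D5:**
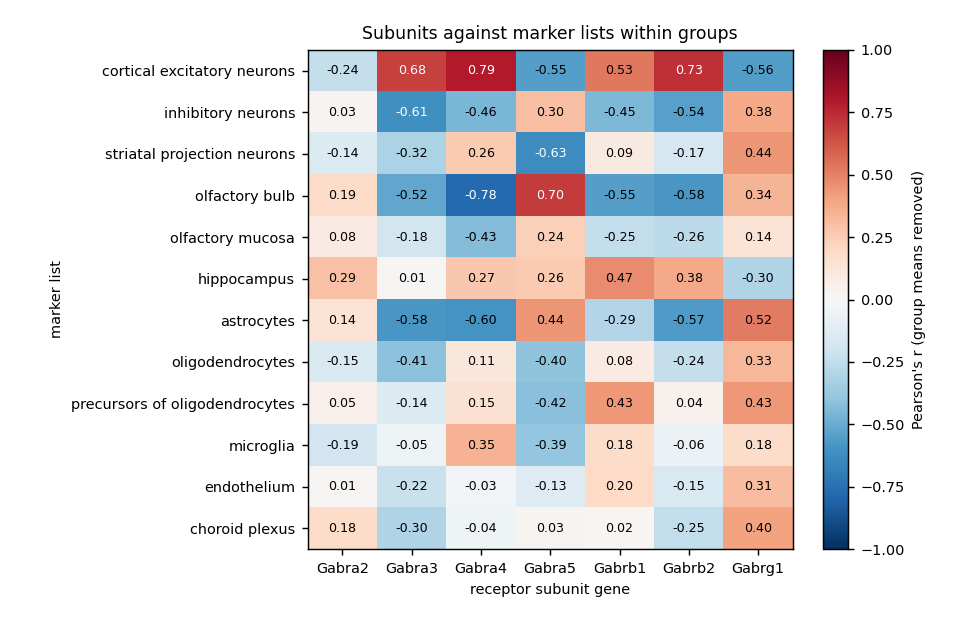
Pearson's r of each of the 7 subunit genes (columns) with the mean z-score of 12 marker lists (rows) over 49 libraries with group means removed; red is positive, blue negative. The Gabra2 column stays between -0.24 and 0.29, while Gabra4 reaches 0.79 with excitatory neuron and -0.78 with olfactory bulb markers.

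The closest genes of the other members had larger r within groups than those of Gabra2. They were Kcna2, a potassium channel gene, for Gabrb2 (0.92), Pcnx for Gabrb1 (0.90), Dync1i1, a dynein chain, for Gabra5 (0.89) and Arl8b, a lysosomal GTPase, for Gabra4 (0.89). Tmem196 and Car10 led for Gabra3 (both 0.87) and Pgrmc1 for Gabrg1 (0.84).

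Oligodendrocyte markers were lower in the comparisons that set Gabra2 apart, and they also differed in the others. Summed, the 6 markers (myelin genes such as Mbp and Mog) lay at 16.48 to 16.81 in WT at 4 months, 16.14 to 16.67 in the libraries labelled AKO, 15.35 to 16.75 with vehicle and 15.58 to 16.65 with tamoxifen. All 6 were lower than in WT at 4 months in each comparison, and those past the threshold were 2, 6 and 6, with median differences of -0.19, -0.63 and -0.43. All 6 were higher in the libraries labelled AKO than with vehicle (median 0.39, 2 passed), where Gabra2 differed by -0.01. They were also higher with tamoxifen than with vehicle (median 0.19, 0 passed) and in WT at 4 than at 2 months (median 0.17, 0 passed). Vehicle 16, the lowest transgenic library in Gabra2, had the highest oligodendrocyte level of its group, and tamoxifen 21, the next lowest, the lowest of its group (15.58). With group means removed, r of Gabra2 with this list was -0.15. Their part in the result was not tested.

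Of 9 other GABA-A subunit genes examined, 4 were tested (Gabrg3, Gabrd, Gabrq and Gabrr2), and none passed the limma threshold in any of the 6 comparisons. At an unadjusted p under 0.05, at most 1 of the 4 did so in a comparison. Over all genes tested the share was 0% to 13.1% by adjusted and 3.29% to 27.4% by unadjusted p, depending on the comparison. With 4 genes nothing is read from these counts. Gabrd, the delta subunit of extrasynaptic receptors, had means of 11.46 to 11.64. The nearest to the threshold were Gabrr2, a rho subunit with at most 52 reads in a library, higher with tamoxifen than in WT at 4 months by 1.02 (SE 0.37, limma adjusted p = 0.074), and Gabrg3, a gamma subunit, lower in WT at 4 than at 2 months (difference -0.23, SE 0.11, limma adjusted p = 0.16). Gabrr2 passed in limma-voom on the recovered reads (adjusted p = 0.049) and in a limma model of all 49 libraries (adjusted p = 0.038). Gabra6, Gabre, Gabrp, Gabrr1 and Gabrr3 were too low to test.

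Genes that make, clear and sense GABA were counted in 4 lists of 38 genes, all tested. For the libraries labelled AKO against WT, limma called 0, with 6 of 38 (15.8%) at an unadjusted p under 0.05 beside 14% of all genes, and the median differences of the lists were -0.06 to -0.01, against 0.01 over all genes. Tamoxifen against vehicle also gave none by limma, with 0 of 38 at an unadjusted p under 0.05.

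Against WT at 4 months, 2 of 38 genes (5.26%) passed with vehicle and 4 of 38 (10.5%) with tamoxifen, both below the 6.2% and 13.1% of all genes, so the counts are no result about these lists. The genes were Slc12a2 and Tspo of the chloride transport and ligand list, lower in both comparisons, and Nlgn2 and Lhfpl4 of the postsynapse list, higher with tamoxifen. Slc12a2, the NKCC1 transporter that brings chloride into cells, was lower by 0.27 with vehicle (difference -0.27, SE 0.06, limma adjusted p = 0.010) and by 0.24 with tamoxifen (-0.24, SE 0.05, limma adjusted p = 0.0023). Tspo, a mitochondrial protein linked to neurosteroid synthesis and a glial marker, differed by -0.34 (SE 0.09) and -0.30 (SE 0.09). Some glial, vascular and regional marker lists were lower in the same comparisons. Microglial markers changed little (4 of 5 lower with vehicle, median -0.02, and 4 of 5 higher with tamoxifen, median 0.01). Striatal markers were lower in 10 of 10 in both (medians -0.75 and -0.78, 0 passed). Besides the 6 of 6 oligodendrocyte markers that passed in both, 4 of 5 endothelial markers were lower (2 passed with vehicle and 1 with tamoxifen, medians -0.25 and -0.15), as were 7 of 7 astrocyte markers (0 passed in limma, 3 in each at an unadjusted p under 0.05). The summed endothelial level was 12.83 to 13.13 in WT at 4 months, 12.49 to 13.07 with vehicle and 12.53 to 13.15 with tamoxifen. The part of these markers was not tested. Nlgn2, the adhesion protein of inhibitory synapses, and Lhfpl4, which anchors GABA-A receptors there, were higher with tamoxifen by 0.15 (SE 0.05) and 0.22 (SE 0.04). Lhfpl4 was also the one gene of the lists whose tamoxifen and WT libraries did not overlap. The share of all genes without overlap was not counted, so nothing is read from this.

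WT mice at 4 months, compared with 2 months, were higher in Slc12a2 (0.29, SE 0.07) and Tspo (0.41, SE 0.09) and lower in Nlgn2 (-0.19, SE 0.05) and Lhfpl4 (-0.16, SE 0.03). Those WT libraries at 4 months are the same ones used above. Abat, which breaks GABA down, and Aldh5a1, the next enzyme of that route, were higher at 4 months by 0.19 (SE 0.05, limma adjusted p = 0.031) and 0.11 (SE 0.03, limma adjusted p = 0.045). All 9 genes of the synthesis, uptake and breakdown list were higher at 4 months, with a median of 0.24 against 0 over all genes, and 2 passed. Over the 4 lists 6 of 38 genes (15.8%) passed, beside 8.77% of all genes. Astrocyte markers were higher as well (7 of 7, of which 5 passed, median 0.18), with a summed level of 16.79 to 17.07 at 2 and 16.96 to 17.13 at 4 months. So were 5 of 5 microglial (3 passed, median 0.21) and 5 of 5 endothelial markers (2 passed, median 0.26), with summed levels of 13.12 to 13.27 and 12.61 to 12.87 at 2 months and of 13.23 to 13.43 and 12.83 to 13.13 at 4. Excitatory neuron markers were lower in 9 of 10 (2 passed, median -0.24). The part of these markers was not tested. Libraries labelled AKO were lower than vehicle in Nlgn2 (-0.18, SE 0.05, limma adjusted p = 0.027) and in Zdhhc3 (-0.14, SE 0.04), a palmitoyltransferase of the Golgi. These were 2 of 38 genes (5.26%), below the 6.72% of all genes, so the count is no result about these lists.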

How the data were processed

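A single table of log2 values was deposited by the authors, covering 24495 genes; no header or label names the unit, aligner, counter, build or normalization. Per the labels' protocols, the Illumina TruSeq Stranded mRNA kit was used. Raising 2 to the deposited log2 value and subtracting 1 gave whole multiples of a single step per column (99.92% to 100.0% of low values within 0.1 of a whole read), so the values are log2(reads over a size factor + 1), and reads were recovered; 7 genes without whole reads were left out. For genes with few reads, fold changes are understated on this scale. A value column that matched no sample was not used (1 column).

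Samples were grouped by their titles. Each comparison was fitted on the deposited values of its 2 groups with limma 3.58.1 (R 4.3.3; intensity trend, robust), two-sided, with Benjamini-Hochberg adjustment over all genes tested, at adjusted p 0.05. The planned design named this fit for log2 values. A gene was tested if it had 15 reads in all and the equivalent of 10 at median depth in at least the smaller group's number of libraries. Correlations used 100000 permutations of group-centred values within groups, and their smallest possible p is 1.0e-05. Levels were compared between genes per kb of exon union (GENCODE M21). The closest libraries of a group differed by a chi-square of 6.79 per gene, so none was treated as a duplicate.

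The members, the gene lists and the marker lists were chosen with earlier results of these data known. Some listed genes are not reported here. Named genes are all members, other subunits past the threshold or with the smallest p, list genes past the threshold, and the genes with the highest and lowest r to a member. Wdfy1 came from that rule, and its values in single libraries were examined after its r was seen. Alternatives were other pseudocounts, no filter, library totals as scale, limma-voom, 1 model of all libraries, subsets of libraries and a block on title numbers.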

Additional observations from a re-analysis of the deposited data

Results flagged for a closer look

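For each member and Nnt, each group was searched for a single library set apart from the rest by a gap too large for its range (Dixon's test at the 95% level). Of 40 groups of values, 8 had such a library, and chance gives about 1 in 20.

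Gabra2 was low in vehicle 16 (11.32, with the other 9 libraries at 11.87 to 12.07) and in tamoxifen 21 (11.50, others 11.83 to 12.10). These are the 2 transgenic libraries with Wdfy1 at the level of the WT and AKO-labelled libraries. By markers they differed: vehicle 16 had the highest astrocyte (17.17) and oligodendrocyte (16.75) levels of its group, and tamoxifen 21 the highest excitatory neuron level (18.15) and the lowest oligodendrocyte level (15.58) of its group. The part of these markers was not tested.

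WT 37 at 2 months was low in Gabra3 (12.79, others 13.06 to 13.28), Gabrb1 (9.02, others at 9.69 and above) and Gabrb2 (13.48, others 13.82 to 14.03). Its striatal (16.50) and oligodendrocyte (16.82) marker levels were the highest of its group. Labelled AKO 16 was low in Gabra3 (12.91, others 13.06 to 13.16) and likewise had the highest striatal (16.52) and oligodendrocyte (16.67) levels of its group.

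WT 13 at 4 months was low in Gabra3 (12.65, others 12.94 to 13.23) and high in Gabra5 (12.75, others 11.62 to 12.07). It had the highest hippocampus marker level of all libraries (11.10, with other group maxima of 9.95 to 10.10). The part of these markers was not tested.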

How the results depend on the processing

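Of 506 values recomputed under alternative settings, 499 were counted as unchanged. A change of sign was not counted as a change where a member other than Gabra2 stayed short of the threshold. An example is the Gabra5 difference of the libraries labelled AKO from WT at 4 months. It was -0.15 over all libraries and 0.03 with WT 21 to 25 alone. Over its alternatives the Gabra2 difference from WT at 4 months stayed at 1.19 to 1.24 in the libraries labelled AKO, 1.19 to 1.25 with vehicle and 1.08 to 1.30 with tamoxifen. The Gabra2 difference of libraries labelled AKO from vehicle, -0.01, became 0.01 with library totals as scale and 0.01 without the olfactory bulb-rich libraries, and was not called in either. Members past the threshold for vehicle against WT went from 1 to 2 without those libraries, with Gabrg1 at -0.23. Other subunits past it for tamoxifen against WT went from 0 to 1 with limma-voom and to 1 in the model of all libraries (Gabrr2 in both). Member pairs that passed by both measures, with r of either sign, numbered 8 without labelled AKO 14 and 19 and 8 without the olfactory bulb-rich libraries, as over all 49.

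Counts over all genes, the background of the member counts, moved more. Without the olfactory bulb-rich libraries they rose from 938 to 2755 for vehicle against WT, from 1997 to 3172 for tamoxifen against WT and from 1019 to 2675 for libraries labelled AKO against vehicle. Without labelled AKO 14 and 19 they went from 120 to 62 against WT and from 1019 to 474 against vehicle. The model of all libraries gave 50 for libraries labelled AKO against WT and 875 (from 1330) for WT at 4 against 2 months. With WT 11 to 15 alone, 139, 165 and 676 genes were called for labelled AKO, vehicle and tamoxifen, and 1149 for WT at 4 against 2 months. With WT 21 to 25 alone the counts were 157, 391, 1246 and 36. The cause of these shifts was not tested.

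Title numbers shared by WT at 4 months and the libraries labelled AKO (12, 13, 14, 15 and 21) gave correlations of -0.24, -0.29, 0.14, 0.11 and 0.05, so the numbers were not taken to pair libraries. With the replicate block, on those 5 pairs, 1 member passed and no other subunit (0), the Gabra2 difference was 1.22 (SE 0.09), and 12 genes were called in place of 120. Tamoxifen and WT at 4 months share 2 numbers (15 and 21, correlations 0.02 and -0.07). With the replicate block on those 2 pairs, which leave 1 residual degree of freedom and were added after seeing the data, the Gabra2 difference was 1.08 (SE 0.15), 1 member and no other subunit (0) passed, and 324 genes were called in place of 1997. This pair of libraries includes tamoxifen 21. The other comparisons share at most 1 number, so no block could be fitted. An edgeR fit was planned and not run, since the deposited unit is log2. Depth limits the lowest subunits: Gabra6, Gabrp, Gabrr1 and Gabrr3 had at most 7, 114, 15 and 12 reads in a library.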

Other observations

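Minor subunits were concentrated in a few libraries. Gabrq and Gabre, which encode the theta and epsilon subunits and lie on the X chromosome, were both highest in tamoxifen 9 (1032 and 213 reads), where Gabrg1 was also at its highest (11.85). In the libraries labelled AKO the same 3 genes were highest in library 7 (388 and 94 reads, Gabrg1 at 11.27), and in WT at 4 months in library 24 (263 and 33 reads, Gabrg1 at 11.11). Median reads per library in these 3 groups were 96, 71.5 and 46 for Gabrq. In WT at 2 months and in the vehicle group, the 3 genes did not have their highest value in a single shared library. Gabrp, the pi subunit, had 114 reads in labelled AKO 14, the library with the highest olfactory mucosa level (14.30), out of 150 reads over all 49 libraries. These libraries were singled out after their values were seen.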
